A study of Mus musculus with 34 samples.

Results

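The collagen genes of mouse liver were measured as 44 chains, which are the symbols of the form Col, number, a, number among the 35976 symbols of the expression table. The form of the symbol chose the members, although the collagens were taken up with earlier results of these data known. The data were total RNA sequencing of 34 livers, 1 library per liver, of C57BL/6 mice homozygous for both TetO-Cas9 and Rosa-rtTA, an inducible Cas9 system that every group shared. Each mouse had been given an adeno-associated virus (AAV) with a guide RNA and had eaten a Western diet for 3 months. The guide targeted Bcl6 (5 livers), Irs1 (5 livers), Smyd2 (6 livers), Srebf1 (5 livers) or Tbx3 (7 livers) in the groups labelled knockout (KO), and GFP (sgGFP, 4 livers) or LacZ (sgLacZ, 2 livers) in the control group of 6. The series title calls the system MOSAICS, and the labels give neither the sex or age of the mice nor which liver cells were cut. RNA came from whole liver, so cut and uncut cells and every cell type of the organ were measured together. Each comparison asked which collagen chains were higher or lower in livers of 1 knockout than in control livers.

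Collagens are secreted or membrane proteins made of 3 chains wound into a triple helix, and they are grouped by the structures they build. Fibrillar collagens such as types I, III and V form the fibres of scar tissue, and type IV forms the sheet of basement membranes. Type VI forms beaded filaments, FACIT collagens sit on fibrils, and types XV and XVIII, the multiplexins, carry heparan or chondroitin sulphate near basement membranes. In a fibrotic liver, activated hepatic stellate cells and portal fibroblasts are the main producers of types I and III, while hepatocytes are a known source of type XVIII. Irs1 is an adaptor of the insulin and IGF1 receptors, Bcl6 and Tbx3 are transcription factors that mainly repress, Srebf1 encodes the lipogenic factor SREBP-1, and Smyd2 is a lysine methyltransferase.

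The promoters of 4 chains are shown because the results below turn on them: Col1a2 and Col3a1 were lower in Irs1 KO livers, and Col8a1 and Col13a1 were higher in Bcl6 KO livers. Each line is the 250 bases before the transcription start that RefSeq gives (build GRCm38.p6), 5′ to 3′ on the strand of the gene. Col1a2 lies at chr6:4505368-4505617 on the plus strand, Col3a1 at chr1:45311288-45311537 on the plus strand, Col8a1 at chr16:57754738-57754987 on the minus strand and Col13a1 at chr10:61979109-61979358 on the minus strand. The GENCODE M21 annotation starts Col1a2 further upstream, at 4504814, so its window lies inside that longer gene model. Capitals mark the CCAAT box (CCAAT), the TATA box (TATAAA) and the GC box (GGGCGG), found on either strand.
Col1a2: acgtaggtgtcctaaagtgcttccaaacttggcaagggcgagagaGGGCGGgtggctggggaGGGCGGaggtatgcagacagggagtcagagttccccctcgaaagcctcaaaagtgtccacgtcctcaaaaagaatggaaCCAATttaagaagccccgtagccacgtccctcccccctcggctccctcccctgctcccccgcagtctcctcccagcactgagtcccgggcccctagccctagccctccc
Col3a1: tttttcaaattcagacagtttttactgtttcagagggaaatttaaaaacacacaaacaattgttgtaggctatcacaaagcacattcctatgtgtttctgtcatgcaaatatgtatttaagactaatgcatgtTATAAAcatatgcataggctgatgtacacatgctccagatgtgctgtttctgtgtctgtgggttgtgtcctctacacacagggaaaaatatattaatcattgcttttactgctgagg
Col8a1: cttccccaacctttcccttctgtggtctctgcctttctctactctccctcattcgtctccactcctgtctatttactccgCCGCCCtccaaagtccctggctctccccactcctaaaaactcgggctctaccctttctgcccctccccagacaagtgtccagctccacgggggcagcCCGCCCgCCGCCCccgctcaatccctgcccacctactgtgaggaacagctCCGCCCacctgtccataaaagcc
Col13a1: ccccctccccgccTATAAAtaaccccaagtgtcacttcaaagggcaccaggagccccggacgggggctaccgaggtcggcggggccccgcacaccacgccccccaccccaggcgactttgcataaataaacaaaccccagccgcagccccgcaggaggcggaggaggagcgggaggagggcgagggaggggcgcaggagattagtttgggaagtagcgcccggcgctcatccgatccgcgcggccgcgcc
The Col1a2 window held a CCAAT box at -109 and GC boxes at -205 and -188, counted from the start site, and the Col3a1 window held a TATA box at -117. The Col8a1 window held 4 GC boxes and the Col13a1 window a TATA box at -237. A gene was counted for a motif if any of its annotated windows held it. Of the 35 chains with an entry in the promoter table, 13 held CCAAT in the 250 bases, against 37.49% of 27025 genes with an entry, 21 held GGGCGG, against 35.36%, and 5 held TATAAA, against 14.33%. TTCNNNGAA, the palindrome at the core of published BCL6 and STAT5 recognition motifs, was found in 2 of the 35, Col28a1 and Col6a5, against 8.13% of genes. Such matches describe letters in a window, not bound sites.

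The deposited values are FPKM, a read count corrected for transcript length and for library size. Low values fell on whole multiples of 1 read, and from this step size each library was estimated to hold 2110000 to 3130000 reads (median 2610000). Hepatocyte markers summed to 78610 to 219800 FPKM per liver, which fits the labelled tissue. The mRNA of the targeted gene overlapped between knockout and control livers for all 5 genes, so its level does not check the labels. Irs1 stood at 25.38 to 35.79 FPKM in Irs1 KO livers against 20.18 to 27.56 in controls, Tbx3 at 80.05 to 248.5 in Tbx3 KO against 45.89 to 147.1, Bcl6 at 46.69 to 100.1 in Bcl6 KO against 27.12 to 104.1, and Smyd2 at 61.71 to 121.4 in Smyd2 KO against 81.57 to 147.4. Srebf1 stood at 498.8 to 1908 FPKM in Srebf1 KO livers against 1095 to 2177 in controls, and the highest knockout value was that of the library labelled Srebf1 KO replicate 1, which lies within the control range. A median FPKM over the tested genes above 20 was found in 4 libraries (sgGFP replicates 1 and 3, Smyd2 KO replicate 6 and Tbx3 KO replicate 7), in a range of 14.97 to 21.82 over all libraries, and each of the 4 held the highest value of its group in 8 to 14 of the 19 chains detected in every liver. The counts against control are therefore also given without them, an alternative chosen after seeing the data. Their cholangiocyte markers were high as well, at 1817 to 3083 FPKM summed per liver, as were those of Smyd2 KO replicate 5 at 2062 FPKM, and the part of these cells in their collagen levels was not tested.

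Collagen mRNA in these livers was dominated by 1 chain. Col18a1, which encodes the precursor of endostatin, made up 60.9% to 86.29% of the summed FPKM of all 44 chains, with a median of 76.82% over the 34 livers. Next by mean level came Col27a1, a fibrillar chain best known from cartilage, at 321.4 FPKM, Col14a1, a FACIT chain, at 258.6 FPKM, and Col4a1, the first chain of basement membrane collagen, at 118.5 FPKM. The fibrillar chains of scar tissue were far lower per length: Col3a1 averaged 54.79, Col1a2 26.55 and Col1a1 19.86 FPKM, and Col1a1 made up 0.03941% to 1.332% of the collagen sum. How the values of a gene's several annotated transcripts were combined is not given in the sources used here, and RefSeq lists 7 transcripts for Col18a1 and 13 for Col27a1 against 1 for Col1a1 and Col3a1, so this order is a description of the deposited values.

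**Figure D1:**
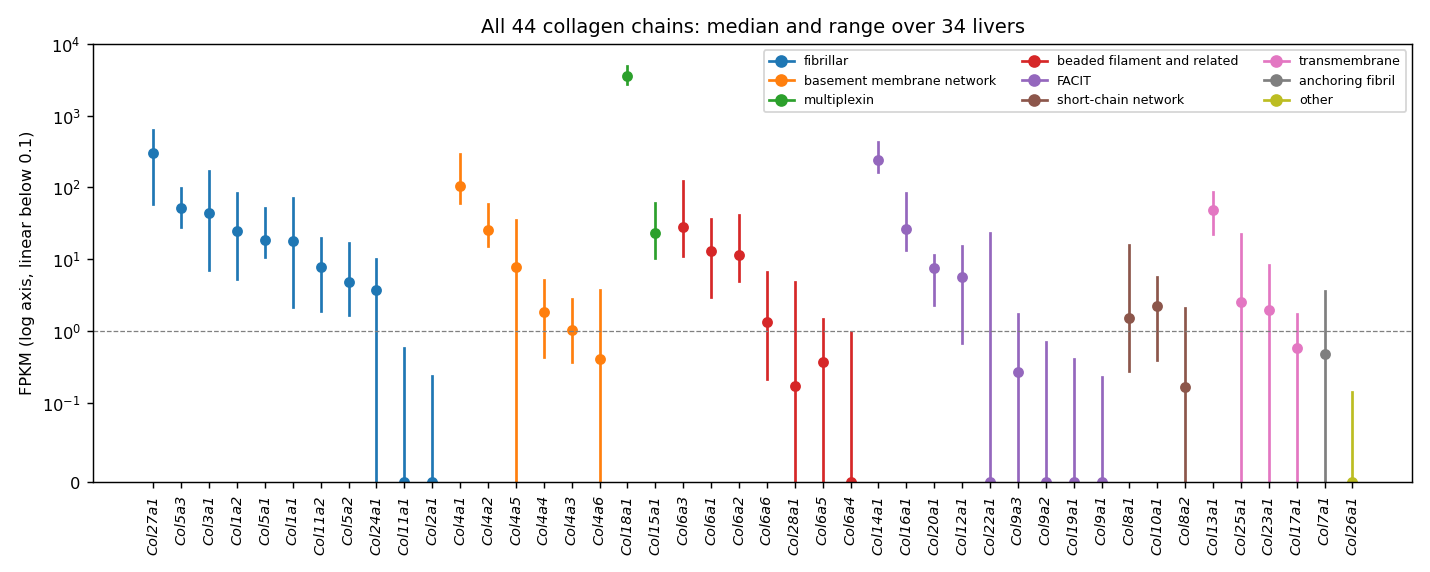
Median (point) and lowest to highest value (line) of each of the 44 collagen chains over 34 livers, in FPKM on a log axis that is linear below 0.1, coloured by structural class. Col18a1 is at 2749 FPKM or more in every liver, and 7 chains stay below the dashed line at 1 FPKM in every liver.

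Of the 44 chains, 19 stood at 1 FPKM or more in every liver and 7 stayed below 1 FPKM in every liver: Col11a1, Col19a1, Col26a1, Col2a1, Col6a4, Col9a1 and Col9a2. Col6a5, Col8a2 and Col9a3 reached 1 FPKM in only 2 or 3 livers. These 10 chains were not tested. The other 34 reached 1 FPKM in at least 5 livers and entered limma's moderated test on log2(FPKM + 1), in which p-values were adjusted over all 19295 genes tested and a chain was called at an adjusted p under 0.05. Col22a1 passed that minimum in 6 livers, 5 of them Bcl6 KO livers, so its inclusion rests on the group in which it is high. It is described without a test, and counts that involve Bcl6 KO are given over the other 33 chains or marked as including it.

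Irs1 KO livers had less mRNA of types I and III collagen, of 2 type V chains, of the main type IV pair and of the 3 main type VI chains, and more Col18a1 mRNA. Of 34 tested chains 12 fell, or 35.3%, where 7.61% of all genes tested were lower at the same threshold, and 1 rose, where 3.24% of all genes were higher. The median log2 change over the 34 chains was -0.62, against -0.12 over all genes tested, with 26 chains below 0 and 8 above. It was -0.36 after quantile normalization, -0.42 after median scaling, -0.41 without the 4 libraries of high median FPKM and -0.22 with no filter. The 12 were 5 of 9 tested fibrillar chains, 2 of 6 basement membrane chains, 3 of 5 beaded filament chains and 2 of 5 FACIT chains. Col1a1 and Col3a1 were already known to be lower here when these genes were chosen, so their counts are not independent support. In bulk RNA, fewer cells of a collagen-producing type and less collagen RNA per cell cannot be told apart.

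Col1a1 (chromosome 11, 94936224 to 94953042, plus strand) encodes the alpha 1 chain of type I collagen, the main fibre of scar tissue. It stood at 2.18, 3.21, 9.68, 5.93 and 3.61 FPKM in the 5 Irs1 KO livers, against a lowest value of 18.51, a median of 25.76 and a highest value of 70.95 FPKM in the 6 control livers. Every Irs1 KO liver lay below every control liver, and sgGFP replicates 1 and 3 stood apart at the top of the controls. The mean was 4.92 ± 2.99 FPKM in Irs1 KO and 37.49 ± 22.87 FPKM in control livers (SD, n = 5 and 6), a log2 change of -2.64 (SE 0.53, limma adjusted p = 0.0015). At the depth of these libraries this was 34 to 157 reads per Irs1 KO liver and 286 to 967 per control liver.

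Col1a2 (chromosome 6, 4504814 to 4541544, plus strand) encodes the partner chain of type I collagen. Its level was 5.25, 7.44, 13.23, 6.96 and 9.69 FPKM in Irs1 KO livers, against 26.57, 32.94 and 84.82 FPKM as the lowest, median and highest control values, with no overlap (log2 change -2.25, SE 0.44, limma adjusted p = 0.0012). Col3a1 (chromosome 1, 45311538 to 45349706, plus strand) encodes type III collagen, which forms finer fibres beside type I. Its level was 6.98, 13.96, 20.5, 22.3 and 19.64 FPKM in Irs1 KO livers, against 56.46, 67.75 and 170.4 FPKM in controls, again with no overlap (log2 change -2.40, SE 0.44, limma adjusted p = 0.00066). The 3 chains thus had their lowest group mean in Irs1 KO and their highest in the controls.

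**Figure D2:**
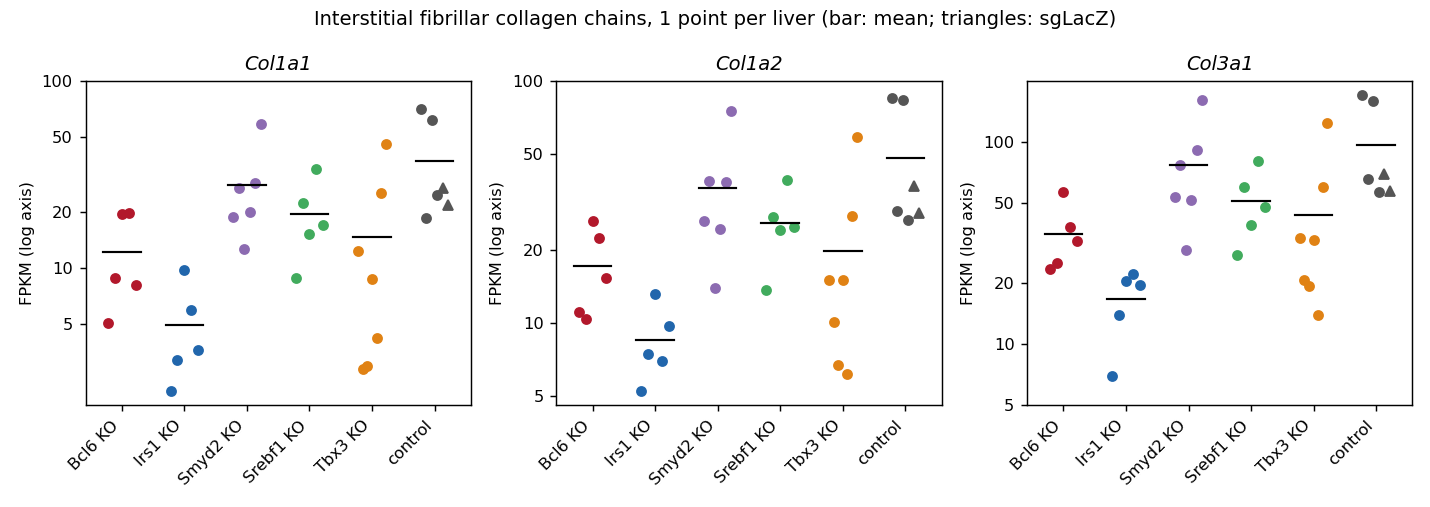
FPKM (log axis) of Col1a1, Col1a2 and Col3a1 in each of 34 livers, by group, with a bar at the group mean and triangles for sgLacZ livers. All Irs1 KO points lie below all control points in the 3 panels, and the Tbx3 KO points span 2.86 to 46.03 FPKM for Col1a1.

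Type V collagen nucleates the fibrils of types I and III, and 2 of its 3 chains fell. Col5a1 stood at 13.32, 12.57, 10.79, 14.42 and 15.69 FPKM in Irs1 KO livers, against 18.5, 22.39 and 51.14 FPKM as the lowest, median and highest control values (log2 change -0.96, SE 0.27, limma adjusted p = 0.018). Col5a2, which lies 24614 bases from Col3a1 on chromosome 1 in the opposite orientation, stood at 1.65 to 3.74 FPKM, against 5.88 to 15.21 FPKM in controls (log2 change -1.39, SE 0.35, limma adjusted p = 0.0093). The groups did not overlap for either chain. The Col5a1 call was kept in 9 of 11 fits that left out 1 liver (limma adjusted p up to 0.059). Col5a3, the third chain, averaged 60.62 ± 13.83 FPKM in Irs1 KO and 54.01 ± 15.98 FPKM in control livers and did not pass (limma adjusted p = 0.65).

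The basement membrane pair fell together. Col4a1 stood at 60.97, 71.38, 74.46, 72.63 and 67.42 FPKM in Irs1 KO livers, against 120.6, 155.6 and 294.2 FPKM as the lowest, median and highest control values (log2 change -1.28, SE 0.27, limma adjusted p = 0.0024). Col4a2, its partner in the heterotrimer, stood at 17.18 to 22.05 FPKM, against 24.81 to 58.85 FPKM in controls (log2 change -0.85, SE 0.25, limma adjusted p = 0.029). Both groups of Irs1 KO values lay wholly below the control values. The Col4a2 call was kept in 7 of 11 fits that left out 1 liver (limma adjusted p up to 0.080). It was lost after quantile (limma adjusted p = 0.052) or median scaling (limma adjusted p = 0.053). The annotated genes lie head to head on chromosome 8 and overlap at their 5′ ends, and the strand setting of the counting is not given in the sources used here. Their FPKM ratio, Col4a1 over Col4a2, was 3.24 to 3.65 in Irs1 KO and 3.88 to 5.00 in control livers, given as a description. Of the other 4 type IV chains none passed the test. Col4a5 averaged 5.54 ± 4.21 FPKM in Irs1 KO and 17.33 ± 12.37 FPKM in control livers, with overlapping values (log2 change -1.48, limma adjusted p = 0.088), and Col4a3, Col4a4 and Col4a6 averaged below 3 FPKM in both groups.

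The 3 chains of type VI collagen, which forms beaded filaments around cells, also fell. Col6a1 stood at 2.97, 7.83, 10.21, 7.99 and 11.24 FPKM in Irs1 KO livers, against 11.96, 15.3 and 36.66 FPKM as the lowest, median and highest control values (log2 change -1.24, SE 0.37, limma adjusted p = 0.026). Col6a2 stood at 6.00 to 9.22 FPKM against 12.47 to 28.78 FPKM in controls (log2 change -1.09, SE 0.35, limma adjusted p = 0.042). Col6a3 stood at 13.81 to 20.43 FPKM against 28.14 to 123.7 FPKM in controls (log2 change -1.57, SE 0.43, limma adjusted p = 0.018). For each of the 3 the highest Irs1 KO liver was below the lowest control liver, by less than 1 FPKM for Col6a1. The Col6a2 call was lost in 8 of 11 fits that left out 1 liver (limma adjusted p up to 0.105), with no filter (0.061) and after quantile (0.089) or median scaling (0.065). Those of Col6a1 and Col6a3 were kept in 8 and 10 of the 11 (limma adjusted p up to 0.10 and 0.057).

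Among FACIT chains, which bind to the surface of fibrils, Col14a1 and Col16a1 fell. Col14a1 stood at 166.9, 172.3, 200.1, 215.3 and 187.5 FPKM in Irs1 KO livers, against 241.3, 325.1 and 394.4 FPKM as the lowest, median and highest control values (log2 change -0.76, SE 0.16, limma adjusted p = 0.0029). Col16a1 stood at 15.93 to 25.09 FPKM against 36.48 to 53.64 FPKM in controls (log2 change -1.04, SE 0.31, limma adjusted p = 0.027). Neither pair of groups overlapped. The Col16a1 call was kept in 7 of 11 fits that left out 1 liver (limma adjusted p up to 0.067). It was lost after quantile (limma adjusted p = 0.060) or median scaling (limma adjusted p = 0.053). Col12a1 averaged 4.03 ± 1.89 FPKM in Irs1 KO and 8.42 ± 2.03 FPKM in control livers, with overlapping values, and did not pass (limma adjusted p = 0.059).

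The multiplexins did not move together. Col18a1 (chromosome 10, 77052178 to 77166548, minus strand) rose: it stood at 4492, 4051, 4248, 4372 and 4530 FPKM in Irs1 KO livers, against 2877, 3000 and 3559 FPKM as the lowest, median and highest control values, with no overlap (log2 change 0.50, SE 0.12, limma adjusted p = 0.006). Col15a1, the other multiplexin, averaged 21.87 ± 7.15 FPKM in Irs1 KO and 34.54 ± 17.63 FPKM in control livers and did not pass (limma adjusted p = 0.32). With Col18a1 high and the fibrillar chains low, the summed FPKM of all 44 chains was 5044 to 5542 in Irs1 KO and 4121 to 5327 in control livers, so the sum does not show the fall of the matrix chains.

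**Figure D3:**
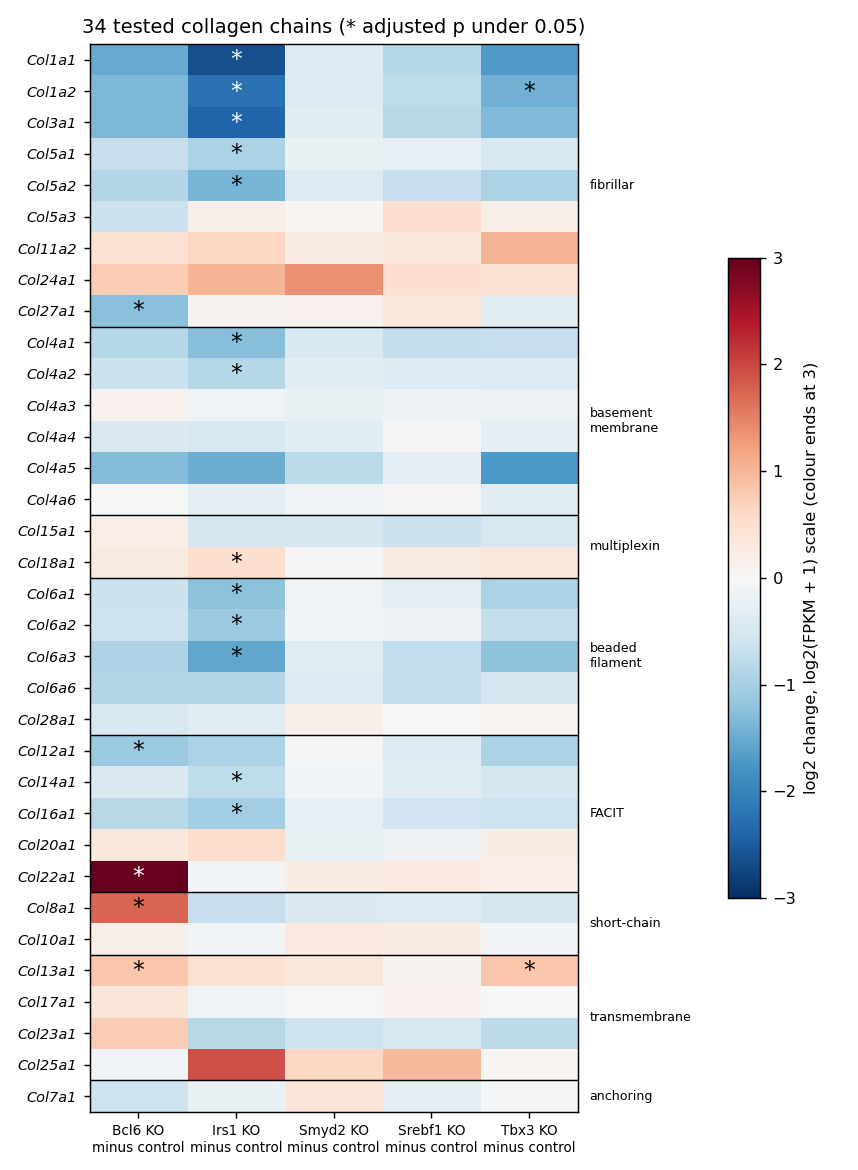
Log2 change of each of the 34 tested collagen chains (rows, by structural class) in each knockout minus control (columns), on the log2(FPKM + 1) scale, with an asterisk where the limma adjusted p is under 0.05. Irs1 KO holds 13 asterisks, Bcl6 KO 5 (that of Col22a1 included), Tbx3 KO 2, and Smyd2 KO and Srebf1 KO none.

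The control livers sgGFP replicates 1 and 3 weigh on the size of these differences. Without the 4 libraries of high median FPKM, 8 chains were lower in Irs1 KO and 1 higher, and all 9 belonged to the 13 called with them. Col1a1 then had a log2 change of -2.14 (limma adjusted p = 0.0049) and Col3a1 of -1.93 (limma adjusted p = 0.0014), while Col5a1, Col4a2, Col6a1 and Col6a2 no longer passed. Without sgGFP replicate 3 alone 6 chains were lower, and without sgGFP replicate 1 alone 8. When each library was scaled to the same median, 9 chains were lower and 2 higher, and when libraries were quantile normalized 9 were lower and 0 higher, since Col18a1 then missed the threshold (limma adjusted p = 0.054). Of all 19295 genes tested, 798 were lower and 1741 higher after median scaling, and 908 and 884 after quantile normalization. In both settings the lower share of the chains was above that of all genes, and the higher share below it. Over all genes the median change was -0.12 as deposited, 0.084 after median scaling and 0.021 after quantile normalization, and the higher share of all called genes was 29.85%, 68.57% and 49.33% in that order of settings. None of the 13 called chains changed sign under either scaling.

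Genes that process, bind and break down collagen were read beside the chains, from lists chosen with earlier results of these data known. Of all genes tested 7.61% were lower and 3.24% higher in Irs1 KO, and 5.63% and 2.75% without the 4 libraries of high median FPKM. Of 26 tested collagen processing genes 6 fell and none rose, but without the 4 libraries 2 were lower and 1 higher, a share near that of all genes. They included Fkbp10, a chaperone that acts in lysine hydroxylation of collagen (1.73 ± 1.37 FPKM in Irs1 KO and 7.17 ± 2.76 in control, limma adjusted p = 0.0039), Sparc, a collagen-binding matrix protein (430.3 ± 129.8 and 1091 ± 396.2, limma adjusted p = 0.0055), and Pcolce, which enhances the clipping of procollagen (12.82 ± 3.05 and 27.71 ± 11.73, limma adjusted p = 0.023). Of 5 lysyl oxidases, the enzymes that cross-link collagen, only Loxl2 was called, at 32.24 ± 4.25 FPKM in Irs1 KO and 81.96 ± 32.76 in control (limma adjusted p = 0.0064).

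Of 8 degradation genes 5 fell, and 2 without the 4 libraries: among the 5 were Timp3, an inhibitor of matrix metalloproteinases (50.45 ± 14.13 FPKM in Irs1 KO and 111.1 ± 43.66 in control, limma adjusted p = 0.0055), Mmp13, a collagenase (0.87 ± 0.83 and 6.27 ± 2.53, limma adjusted p = 0.011), and Ctsk, a collagen-cutting protease (2.46 ± 0.81 and 11.84 ± 7.38, limma adjusted p = 0.021). Timp1, another such inhibitor, was listed at 0 in all Irs1 KO livers. None of 6 tested collagen receptors was called by limma. Of 17 matrix partners 9 fell, and 5 without the 4 libraries, among the 9 Postn, which binds collagen I (81.5 ± 14.58 FPKM in Irs1 KO and 210.3 ± 43.16 in control, limma adjusted p = 0.00036), and Nid1, which links laminin to type IV collagen (17.63 ± 2.61 and 57.56 ± 20.37, limma adjusted p = 0.0026). Fn1, fibronectin, rose, at 21050 ± 1577 and 14880 ± 1395 FPKM (limma adjusted p = 0.00028), and hepatocytes are a known source of plasma fibronectin. Of 18 TGF-beta and PDGF genes, which drive stellate cell activation, 5 fell, and 4 without the 4 libraries, among the 5 the ligand Tgfb2 (3.07 ± 2.48 and 12.74 ± 4.93 FPKM, limma adjusted p = 0.0027), the latent TGF-beta binding protein family member Ltbp2 (1.90 ± 0.92 and 13.77 ± 11.2, limma adjusted p = 0.0034) and the receptor Tgfbr2 (61.22 ± 11.24 and 99.21 ± 10.28, limma adjusted p = 0.011).

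Some markers of the cells that could carry the collagen RNA were also called in Irs1 KO livers. The shares over all genes tested were 7.61% lower and 3.24% higher. Of 15 tested stellate cell and myofibroblast markers other than collagens, 3 fell and 1 rose: Pdgfrb, the PDGF receptor of stellate cells, stood at 18.95 ± 2.91 FPKM in Irs1 KO and 43.77 ± 14.1 in control (limma adjusted p = 0.0051), Lrat, the retinol esterase of quiescent stellate cells, at 37.65 ± 2.66 and 61.43 ± 10.17 (limma adjusted p = 0.027), and Ecm1 at 542.8 ± 114.1 and 416.6 ± 91.06 (higher, limma adjusted p = 0.043). Summed over the list the level was 1396 to 1829 FPKM in Irs1 KO and 1768 to 2139 FPKM in control livers. Portal fibroblast and mesothelial markers summed to 52.19 to 98.58 FPKM in Irs1 KO and 140.3 to 274.5 in control livers, and 3 of 11 fell (Gas6, Fbln2 and Fbln1). Cholangiocyte markers summed to 295.6 to 554.9 and 729.5 to 3083 FPKM, with Spp1 the 1 of 7 that fell. Macrophage markers summed to 446.4 to 788.5 and 544.7 to 850.4 FPKM, with 2 of 10 lower (Gpnmb and Itgax), and sinusoidal endothelial markers to 569.7 to 847.2 and 684.8 to 903, with 2 of 10 lower (Lyve1 and Pecam1). Of 10 hepatocyte markers 6 rose, Serpina1a, Hnf4a and Cps1 with the smallest adjusted p. The lower counts without the 4 libraries were 1 of 15 stellate, 2 of 11 portal fibroblast, 1 of 7 cholangiocyte, 1 of 10 macrophage and 1 of 10 endothelial markers. Ecm1 was not called, while 6 of 10 hepatocyte markers were still higher. In that setting 5.63% of all genes tested were lower and 2.75% higher, so the stellate share, 6.67%, lay near that of all genes. The part of cell composition in the fall of the collagen chains was not tested.

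**Figure D4:**
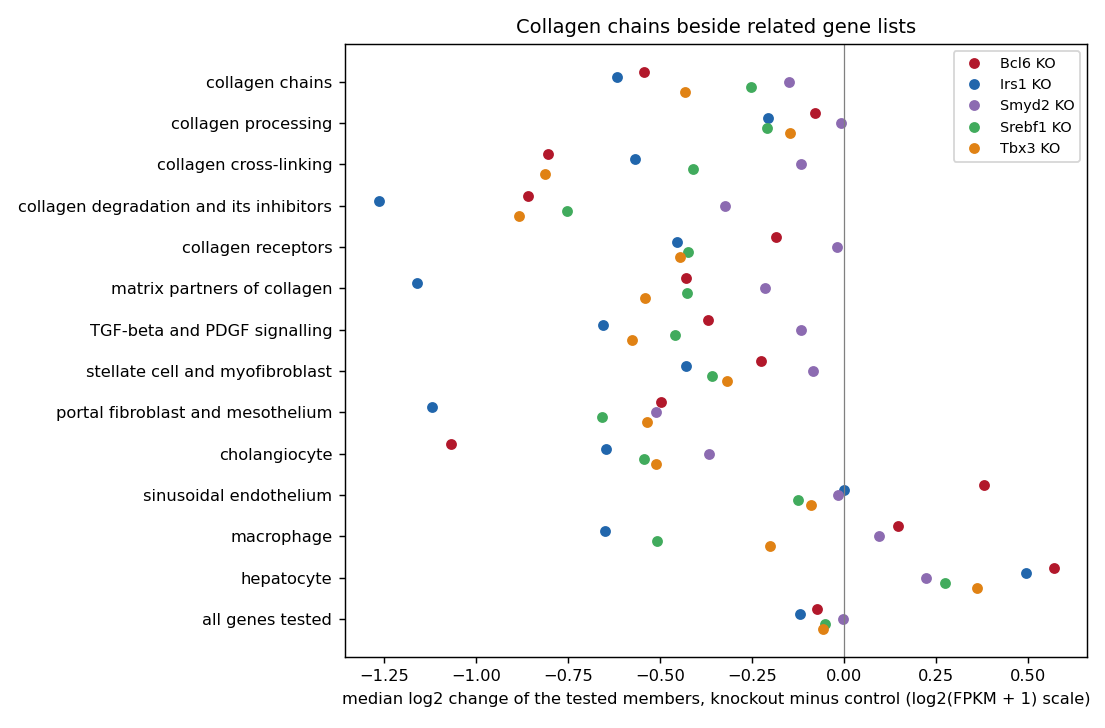
Median log2 change of the tested members of each gene list (rows) in each knockout minus control (coloured points), on the log2(FPKM + 1) scale, beside the collagen chains (top row) and all genes tested (bottom row). In Irs1 KO the collagen median is -0.62 and the matrix partner median -1.16, against -0.12 over all genes tested.

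Bcl6 KO livers carried Col22a1 mRNA that control livers barely held, and more mRNA of Col8a1 and Col13a1. Of the 33 chains other than Col22a1 2 rose, where 2.95% of all genes tested were higher, and 2 fell, where 3.19% were lower. The higher chains were Col8a1 and Col13a1, of different structural classes, and the lower ones Col27a1 and Col12a1. The median log2 change over the 34 chains, Col22a1 included, was -0.54, against -0.074 over all genes tested, with 22 chains below 0 and 12 above.

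Col22a1 (chromosome 15, 71795795 to 72034227, minus strand) is a FACIT chain known from tissue junctions such as that of muscle and tendon. It stood at 16.57, 10.56, 10.53, 23.09 and 11.91 FPKM in the 5 Bcl6 KO livers. In the 6 control livers it was listed at 0 in all but sgGFP replicate 3, at 0.36 FPKM, and it did not exceed 1.36 FPKM in any of the other 4 knockout groups. This is a log2 change of 3.82, on a scale that understates the change of a gene near 0. With a filter of 1 FPKM in at least 17 libraries the chain was not tested.

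Col8a1 (chromosome 16, 57624258 to 57754737, minus strand) encodes a short-chain collagen of vessel walls and of the eye. It stood at 9.22, 13.13, 15.6, 12.38 and 6.22 FPKM in Bcl6 KO livers, against 0.66, 2.22 and 7.13 FPKM as the lowest, median and highest control values (log2 change 1.76, SE 0.36, limma adjusted p = 0.0017). This was 85 to 228 reads in Bcl6 KO and 9 to 92 in control livers. Only the highest control, sgGFP replicate 3, reached the Bcl6 KO range, and without the 4 libraries of high median FPKM the log2 change was 2.27. Col13a1 (chromosome 10, 61838236 to 61979108, minus strand), a transmembrane collagen of cell adhesion sites, stood at 71.05, 49.94, 72.34, 48.65 and 76.71 FPKM in Bcl6 KO, against 22.75, 35.09 and 58.19 FPKM in controls (log2 change 0.84, SE 0.22, limma adjusted p = 0.016). Its groups overlapped through sgLacZ replicate 2 at 58.19 FPKM, and the next highest control was sgLacZ replicate 1 at 45.82. The controls averaged 28.92 FPKM in sgGFP and 52 in sgLacZ livers, with no overlap (log2 change -0.86, limma unadjusted p = 0.005). The Bcl6 KO livers at 48.65 and 49.94 FPKM lay below the sgLacZ mean. Without the 4 libraries the Col13a1 call was lost (limma adjusted p = 0.064), and it was kept in 8 of 11 fits that left out 1 liver.

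Col27a1 (chromosome 4, 63214004 to 63334991, plus strand) fell: it stood at 59.67, 127.6, 134.7, 217.7 and 195.7 FPKM in Bcl6 KO livers, against 208.8, 317.2 and 625.4 FPKM in controls (log2 change -1.24, SE 0.34, limma adjusted p = 0.021). The ranges met, as 1 Bcl6 KO liver lay above the lowest control, and the call was lost without Bcl6 KO replicate 1 (limma adjusted p = 0.11) or sgGFP replicate 4 (limma adjusted p = 0.06). Col12a1, a FACIT chain, stood at 2.17 to 4.51 FPKM against 6.56 to 12.12 FPKM in controls, with no overlap (log2 change -1.10, SE 0.33, limma adjusted p = 0.04). That call was lost in 7 of 11 fits that left out 1 liver, for example without Bcl6 KO replicate 1 (limma adjusted p = 0.12). Without Bcl6 KO replicate 1 the lower count was 0 and without replicate 3 it was 4, the 2 added chains being Col3a1 and Col4a1. Without the 4 libraries of high median FPKM 2 chains, Col22a1 included, were higher and 3 lower, Col13a1 being lost and Col5a3 added.

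**Figure D5:**
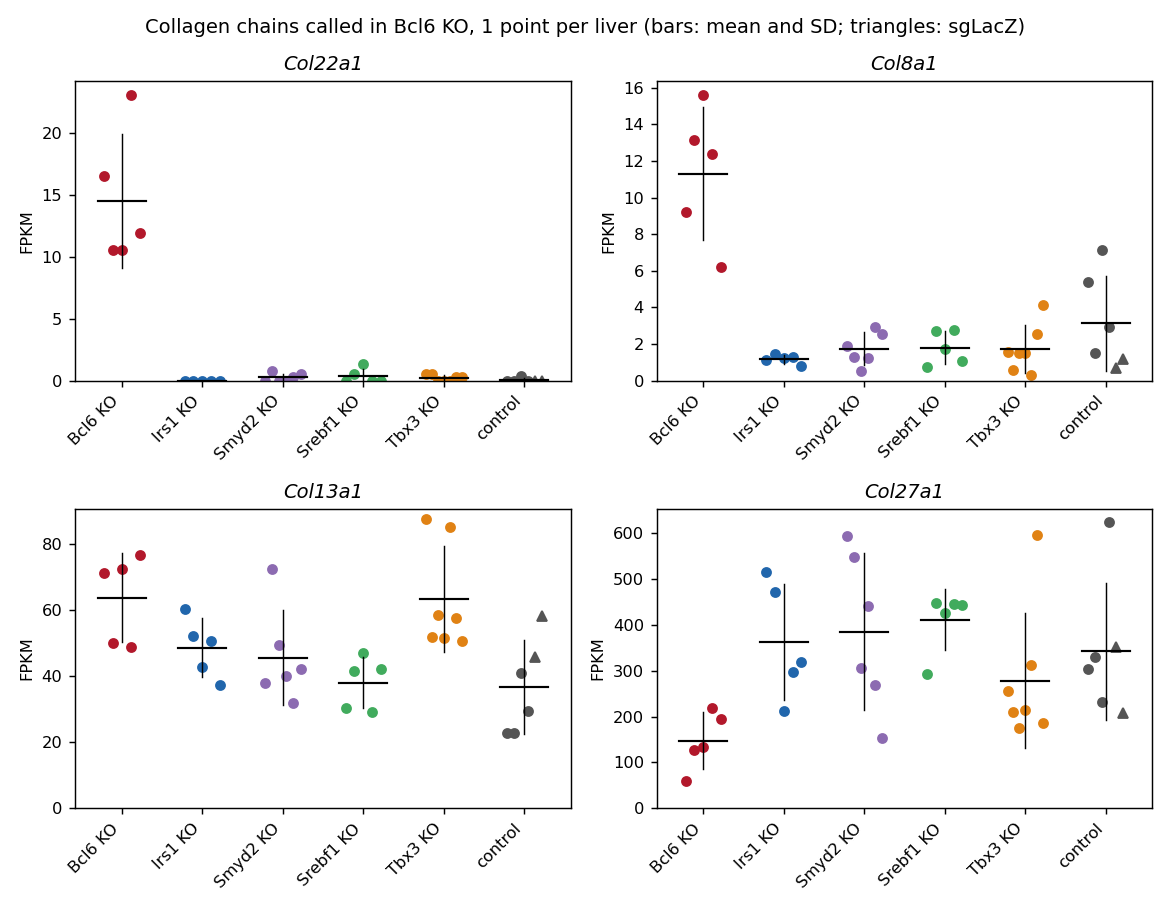
FPKM of Col22a1, Col8a1, Col13a1 and Col27a1 in each of 34 livers, by group, with bars for the group mean and SD and triangles for sgLacZ livers. Col22a1 is above 10 FPKM in every Bcl6 KO liver and below 2 FPKM in every other liver, while Col27a1 has its lowest group mean, 147.1 FPKM, in Bcl6 KO.

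The matrix chains that fell in Irs1 KO did not pass in Bcl6 KO, although their values leaned the same way. Col1a1 stood at 5.05, 8.80, 19.34, 19.53 and 8.07 FPKM in Bcl6 KO livers, of which 2 exceeded the lowest control at 18.51 FPKM (log2 change -1.52, SE 0.53, limma adjusted p = 0.088). Col1a2 was at 10.43 to 26.51 FPKM against 26.57 to 84.82 FPKM (limma adjusted p = 0.064), Col3a1 at 23.57 to 56.8 against 56.46 to 170.4 FPKM (limma adjusted p = 0.067) and Col4a1 at 81.78 to 128.5 against 120.6 to 294.2 FPKM (limma adjusted p = 0.055). Col6a1, Col6a2, Col6a3, Col5a1, Col5a2, Col4a2 and Col14a1 had log2 changes of -0.43 to -0.93, and Col15a1 and Col18a1 of 0.19 and 0.26, none of them called. These comparisons share the control livers with those of Irs1 KO.

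Few collagen-handling genes were called in Bcl6 KO, 1 at most per list, where 2.95% of all genes were higher and 3.19% lower. Single calls in short lists give only coarse shares. The median log2 change was -0.80 for cross-linking, -0.86 for degradation, -0.43 for matrix partners and -0.37 for TGF-beta and PDGF genes. For processing genes it was -0.078 and for receptors -0.19, against -0.074 over all genes tested. These medians were not tested. Of 26 processing genes 1 rose: Colgalt2, a galactosyltransferase that glycosylates hydroxylysine in collagen, averaged 18.04 ± 11.04 FPKM in Bcl6 KO and 0.78 ± 0.47 in control (log2 change 3.31, SE 0.34, limma adjusted p = 1.04e-08). Loxl2 fell as 1 of 5 cross-linking genes (35.23 ± 7.45 and 81.96 ± 32.76 FPKM, limma adjusted p = 0.015). Mrc2, an endocytic collagen receptor, fell as 1 of 8 degradation genes (3.87 ± 0.51 and 12.29 ± 7.81, limma adjusted p = 0.047), and Thbs2 as 1 of 17 matrix partners (3.21 ± 1.16 and 9.05 ± 5.84, limma adjusted p = 0.042). No collagen receptor and no TGF-beta or PDGF gene was called. Of 15 stellate markers Lrat fell (36.58 ± 8.65 and 61.43 ± 10.17, limma adjusted p = 0.02) and Ecm1 rose (548.6 ± 35.86 and 416.6 ± 91.06, limma adjusted p = 0.037). Of 10 sinusoidal endothelial markers 5 rose, Dnase1l3, Clec4g and Stab2 with the smallest adjusted p, and the list summed to 955.5 to 1111 FPKM in Bcl6 KO and 684.8 to 903 in control livers. Of 10 hepatocyte markers 7 rose, led by Alb, albumin, at 131500 ± 26540 and 45810 ± 6557 FPKM (limma adjusted p = 1.84e-09), and 1 of 7 cholangiocyte markers, Sox9, fell. When the 4 libraries were left out Colgalt2 and Loxl2 were still called, and no degradation gene, matrix partner, stellate or cholangiocyte marker was. Higher were 1 of 18 TGF-beta and PDGF genes, 3 endothelial and 7 hepatocyte markers. In that setting 2.89% of all genes tested were higher and 3.29% lower. The part of these cell types in the higher and lower collagen chains was not tested.

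Tbx3 KO livers varied widely in collagen mRNA, and few chains passed the test. Of 34 chains 1 rose, where 1.17% of all genes tested were higher, and 1 fell, where 1.37% were lower, and the median log2 change was -0.43 against -0.058 over all genes. Col1a2 fell: it had a lowest, median and highest value of 6.16, 15.04 and 58.57 FPKM in the 7 Tbx3 KO livers, against 26.57, 32.94 and 84.82 FPKM in controls (log2 change -1.44, SE 0.40, limma adjusted p = 0.047). Tbx3 KO replicates 6 and 7 lay within the control range and the other 5 livers below it. Col13a1 rose: it stood at 50.6, 57.43 and 87.35 FPKM, against 22.75, 35.09 and 58.19 FPKM in controls (log2 change 0.82, SE 0.20, limma adjusted p = 0.024), and all 7 livers were above the control mean. That mean pools sgGFP livers at 28.92 and sgLacZ livers at 52 FPKM on average, and the lowest Tbx3 KO liver lay below the latter. The Col13a1 call was kept in 9 of 13 fits that left out 1 liver (limma adjusted p up to 0.083). The Col1a2 call was lost in 9 of 13 fits that left out 1 liver (limma adjusted p up to 0.14), and in 8 of the 13 no chain was lower. Col1a1 stood at 12.36, 2.86, 2.98, 8.72, 4.23, 25.15 and 46.03 FPKM (limma adjusted p = 0.051 for a log2 change of -1.70, SE 0.48), and Col3a1 at 14.03 to 124.7 FPKM (limma adjusted p = 0.07), both short of the threshold.

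Tbx3 KO replicate 7 held the highest value of its group in 13 of the 19 chains that were at 1 FPKM or more in every liver, and replicate 5 the lowest in 10. Without replicate 7 a total of 11 chains were lower and 2 higher, and Col1a1 had a log2 change of -2.06 (limma adjusted p = 0.005). The share of all genes called in that fit is not given here. Without the 4 libraries of high median FPKM, which include replicate 7 and sgGFP replicates 1 and 3, 5 chains were lower and 2 higher. Col13a1 then missed the threshold (limma adjusted p = 0.058). In that setting 2.18% of all genes tested were lower and 1.66% higher. In the 2 groups fitted alone no chain passed. In Tbx3 KO replicate 7 macrophage markers summed to 1321 FPKM, cholangiocyte markers to 1928 and portal fibroblast markers to 168.3, each the highest of its group, where the group medians were 595.1, 966.8 and 111.9 and the control livers lay at 544.7 to 850.4, 729.5 to 3083 and 140.3 to 274.5. Outside the chains, Mmp14, a membrane-bound collagenase (65.43 ± 11.88 FPKM in Tbx3 KO and 130.9 ± 68.19 in control, limma adjusted p = 0.034), Tgfbr2 (67.26 ± 25.81 and 99.21 ± 10.28, limma adjusted p = 0.033), Pdgfrb (23.76 ± 11.22 and 43.77 ± 14.1, limma adjusted p = 0.032) and Lrat (39.25 ± 13.76 and 61.43 ± 10.17, limma adjusted p = 0.039) fell. Of 10 hepatocyte markers 3 rose and 1 fell, and no gene of the other lists was called. With the 4 libraries left out, where 2.18% of all genes were lower, 0 of 8 degradation genes, 1 of 6 receptors and 3 of 17 matrix partners were. So were 2 of 18 TGF-beta and PDGF genes and 3 of 15 stellate markers. The part of these markers in the Tbx3 KO values was not tested.

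In Srebf1 KO livers no collagen chain passed the limma test in either direction, and 2 of 34 had an unadjusted p under 0.05. Of all genes tested 0.197% were higher and 0.181% lower. Col1a1 stood at 8.78, 22.2, 15.23, 33.67 and 16.96 FPKM in Srebf1 KO livers, against 18.51 to 70.95 FPKM in controls (log2 change -0.85, limma adjusted p = 0.50), and Col3a1 at 27.64, 60.02, 38.92, 80.83 and 47.84 FPKM against 56.46 to 170.4 FPKM (log2 change -0.83, limma adjusted p = 0.42). The groups overlapped, and the median log2 change over the 34 chains was -0.25 against -0.052 over all genes. The library labelled Srebf1 KO replicate 1 held the lowest value of its group in 15 of the 19 chains, and replicate 4 the highest in 13. The counts were 0 with and without replicate 1, and 0 without the 4 libraries of high median FPKM. Among the related genes P4hb, the beta subunit of the enzyme that hydroxylates collagen prolines, rose to 1909 ± 208.6 FPKM against 1468 ± 157.7 in control (limma adjusted p = 0.03), and no other listed gene was called. P4hb was not called either once the 4 libraries of high median FPKM were left out.

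In Smyd2 KO livers no collagen chain passed the limma test either, and 1 of 34 had an unadjusted p under 0.05. Of all genes tested 0.0% were higher and 0.0% lower. Col1a1 had a lowest, median and highest value of 12.64, 23.29 and 59.1 FPKM in the 6 Smyd2 KO livers, against 18.51, 25.76 and 70.95 FPKM in controls (log2 change -0.40, SE 0.50, limma adjusted p = 0.93). Col3a1 stood at 29.11, 65.2 and 161.7 FPKM, against 56.46, 67.75 and 170.4 FPKM (log2 change -0.35, limma adjusted p = 0.92). The groups overlapped, and a p that misses the threshold does not show that they are alike. Without the 4 libraries of high median FPKM the count was also 0. Replicate 6 held the highest value in 14 of the 19 chains and replicate 3 the lowest in 11. The median log2 change over the 34 chains was -0.15 against -0.0023 over all genes.

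Whether the knockouts differed from each other was tested without the shared controls. By the F test 9 of the 33 chains other than Col22a1 differed among the 5 knockouts, where 14.5% of all genes tested did. They were Col8a1, Col5a3, Col23a1, Col27a1, Col3a1, Col1a1, Col1a2, Col14a1 and Col18a1. Mean Col1a1 was 4.92 FPKM in Irs1 KO, 12.16 in Bcl6 KO, 14.62 in Tbx3 KO, 19.37 in Srebf1 KO and 27.6 in Smyd2 KO. With Col22a1 counted, the number was 10 over all livers, 5 without Irs1 KO replicate 1, 6 without Irs1 KO replicate 2 and 16 without the 4 libraries of high median FPKM. For the fits with livers left out the share of all genes called by the F test is not given here.

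Irs1 KO was then set against each other knockout. It was chosen as the first side because Col1a1 and Col3a1 were already known to be lower there. Calls of these chains below are therefore not independent support, and pairs without Irs1 KO were not tested. Against Smyd2 KO 5 chains were called, where 4.26% of all genes were: Col1a1 (log2 change -2.24, limma adjusted p = 0.015), Col1a2 (-1.84, limma adjusted p = 0.017), Col3a1 (-2.04, limma adjusted p = 0.008) and Col14a1 (-0.67, limma adjusted p = 0.019) were lower in Irs1 KO, and Col18a1 was higher (0.47, limma adjusted p = 0.02). The values of these 5 chains in the 2 groups did not overlap, but without Irs1 KO replicate 1 only 1 chain was called. Against Bcl6 KO 4 of the 33 chains other than Col22a1 were called, a share near the 11.3% of all genes that were. None of the 4 was among the 5 called against Smyd2 KO. Col8a1 (log2 change -2.46, limma adjusted p = 2.15e-05) and Col23a1 (-1.61, limma adjusted p = 0.0031) were lower in Irs1 KO, and Col27a1 (1.36, limma adjusted p = 0.0099) and Col5a3 (0.83, limma adjusted p = 0.012) higher. Col1a1 and Col3a1 did not pass between Irs1 KO and Bcl6 KO (log2 change -1.12, limma adjusted p = 0.21, and -1.06, limma adjusted p = 0.14). Against Srebf1 KO and Tbx3 KO no chain passed by limma, where 1.6% and 2.81% of all genes did, with 9 and 3 chains at an unadjusted p under 0.05. Without the 4 libraries of high median FPKM the numbers were 7 against Smyd2 KO, 6 against Bcl6 KO (Col22a1 counted), 3 against Srebf1 KO and 0 against Tbx3 KO. The shares of all genes called between knockouts in that setting are not given here, so these numbers cannot be set against them. As fitted on all livers, the fall of the fibrillar chains against control is not shown to differ between Irs1 KO and those 3 knockouts.

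Col23a1 and Col5a3 are named here because the comparisons between knockouts called them, after their values were seen. Col23a1, a transmembrane collagen, stood at 8.29, 4.07, 6.51, 4.69 and 4.13 FPKM in Bcl6 KO livers, at 0.93 to 1.28 FPKM in Irs1 KO livers and at 1.21 to 5.05 FPKM in control livers. Col5a3, the third chain of type V collagen, stood at 28.09, 35.43, 33.5, 31.98 and 36.92 FPKM in Bcl6 KO livers, at 45.36 to 76.65 FPKM in Irs1 KO livers and at 35.65 to 84.03 FPKM in control livers. Neither passed in Bcl6 KO against control (limma adjusted p = 0.23 and 0.065).

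The 2 kinds of control liver were compared in a fit that kept them apart. No chain was called between sgGFP and sgLacZ livers by limma, where 0.0104% of all genes were, nor without the 4 libraries of high median FPKM, but 4 livers against 2 give little precision, with a median SE of 0.47 over the 34 chains. In 29 of 34 chains the change was above 0, with a median of 0.42 against 0 over all genes tested. An unadjusted p under 0.05 was found for 3 chains: Col8a1 (4.23 FPKM in sgGFP and 0.92 in sgLacZ livers on average), Col13a1 (28.92 and 52 FPKM) and Col24a1 (1.74 and 4.70 FPKM). With sgGFP livers alone as control, 13 chains were lower in Irs1 KO and 3 higher, among them all 13 of the calls against both controls. Of the 19194 genes tested in that setting 1338 were lower and 583 higher.

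Ratios between chains that share a trimer varied from liver to liver. Col1a1 over Col1a2 had a lowest, median and highest FPKM ratio of 0.37, 0.43 and 0.85 in Irs1 KO, and of 0.64, 0.75 and 0.93 in control livers. In Tbx3 KO it spanned 0.28 to 0.91, and in Bcl6 KO, Smyd2 KO and Srebf1 KO its medians were 0.73, 0.77 and 0.68. Col5a1 over Col5a2 was 2.96 to 7.62 in Irs1 KO and 2.64 to 4.02 in control livers, and Col6a2 over Col6a1 was 0.63 to 2.14 and 0.66 to 1.07. These ratios carry the counting error of the lower chain and were not tested.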

How the data were processed

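Total RNA of 34 mouse livers was sequenced with a SMARTer stranded total RNA kit after TRIzol and RNeasy extraction, per the labels' protocols. The deposited values are FPKM per gene symbol, made by the authors. featureCounts 1.6.4 and the builds mm10 and GRCh38 are named in the submitters' processing notes, while the aligner, annotation, strand setting and the combination of transcripts were not given in these sources. No read counts were used, so depth was read from the whole-read steps of low FPKM values. Gene positions are from GENCODE M21 and promoters from RefSeq, both on GRCm38.

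Groups came from the labels, and sgGFP and sgLacZ livers formed 1 control. The 19295 genes that reached 1 FPKM in 5 libraries or more were tested with limma 3.58.1 (R 4.3.3) on log2(FPKM + 1), in 1 fit of 6 groups with a mean-variance trend. Tests were two-sided with Benjamini-Hochberg adjustment over all genes tested and a threshold of 0.05. Fold changes are on the log2(FPKM + 1) scale, which understates changes of low genes. The script was tested on simulated data. Other values used Python 3.11.15 with pandas 2.3.3. Labels do not say more on how mice were housed or processed together, so p-values measure the spread between these livers.

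The chains described by name were the main fibrillar, basement membrane, beaded filament and FACIT chains and every other chain past the threshold against control. From each other list up to 3 called genes with the smallest adjusted p were named. The chains and lists were chosen with earlier results of these data known. Alternatives were a pseudocount of 0.1, no filter, a filter of 17 libraries, quantile and median scaling, no trend, a replicate block, sgGFP livers alone, the 2 groups alone, each liver left out, and, added after seeing the data, 4 libraries of median FPKM above 20 left out.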

Additional observations from a re-analysis of the deposited data

Results flagged for a closer look

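Single livers stood apart from the rest of their group in 21 of 113 groups of values examined, by Dixon's criterion on the gap to the nearest liver, and chance alone marks about 1 in 20 groups. Smyd2 KO replicate 6 was the high one for Col1a1 (59.1 FPKM), Col18a1 (3553), Col6a1 (35), Col6a2 (41.81), Col6a3 (96.02) and Col16a1 (84.55 FPKM). Tbx3 KO replicate 7 was the high one for Col1a2 (58.57 FPKM), Col3a1 (124.7), Col5a2 (11.02), Col15a1 (50.62), Col6a1 (30.79), Col6a2 (30.55), Col6a3 (95.36), Col14a1 (360.3) and Col16a1 (61.13 FPKM). The remaining high livers were Bcl6 KO replicate 3 for Col4a1 (128.5 FPKM), sgGFP replicate 3 for Col22a1 (0.36), Tbx3 KO replicate 6 (597) and sgGFP replicate 4 (625.4) for Col27a1, and Srebf1 KO replicate 4 for Col16a1 (70.94 FPKM). The library labelled Srebf1 KO replicate 1 was the low one for Col27a1 (293.4 FPKM).

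Levels differed among the 5 knockouts for 10 of 34 tested chains by limma's F test, Col22a1 counted, where 14.5% of all genes tested did. The adjusted p of limma's F test was 4.54e-14 for Col22a1, 4.004e-05 for Col8a1, 0.00404 for Col5a3, 0.00709 for Col23a1, 0.00847 for Col27a1, 0.0146 for Col3a1, 0.0222 for Col1a1, 0.0255 for Col1a2, 0.0367 for Col14a1 and 0.0441 for Col18a1. The test of Col22a1 carries no weight, since it passed the minimum level through Bcl6 KO livers.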

How the results depend on the processing

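The number of collagen chains lower in Bcl6 KO, 2 as reported, was 1 with a pseudocount of 0.1, with no filter and with sgGFP livers alone, and 4 in the 2 groups alone. The number higher in Irs1 KO, 1 as reported, was 0 after quantile normalization, 2 after median scaling and 3 with sgGFP livers alone. Over all genes tested in Irs1 KO, 884 of 19295 were higher after quantile normalization and 1741 of 19295 after median scaling. With sgGFP livers alone 583 of 19194 were. For Tbx3 KO, with 1 higher and 1 lower as reported, the 2 groups alone gave 0 higher, and no filter, no trend or the 2 groups alone gave 0 lower. The lower number was 3 with the 17-library filter and 2 after median scaling. Leaving out the 4 libraries of high median FPKM gave 2 higher and 5 lower in Tbx3 KO, 16 chains differing among knockouts in place of 10 (Col22a1 counted), and 3 between Irs1 KO and Srebf1 KO in place of 0. For the comparisons between knockouts the share of all genes called in that setting is not given here. The cause of these changes was not tested.

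Equal replicate numbers did not pair the livers: over 83 same-number pairs the median correlation of deviations was -0.00472, and 2 pairs exceeded 0.1. With the replicate block 8 chains were lower in Bcl6 KO, 2 higher and 12 lower in Tbx3 KO, and 3 differed between Irs1 KO and Srebf1 KO. Over all genes tested the block called 1334 lower and 597 higher in Tbx3 KO, where the reported fit called 265 and 225. In Bcl6 KO the block called 610 genes lower, where the reported fit called 615. Number 7 exists only in Tbx3 KO, so the block takes up that library.

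With 1 liver left out at a time, Bcl6 KO had 2 to 3 chains higher, Col22a1 counted, and 0 to 4 lower. Irs1 KO had 1 to 2 higher and 6 to 12 lower, and Tbx3 KO 0 to 2 higher and 0 to 11 lower. The F test gave 5 to 15 chains and Irs1 KO against Bcl6 KO 5 to 5, both with Col22a1 counted. Irs1 KO against Smyd2 KO gave 1 to 7. Of 661 recomputed values of single chains 574 kept their direction and side of the threshold, 70 lost the call, 17 gained one and 0 changed sign. The 661 include Col22a1, and also Col1a1, Col1a2 and Col3a1 where these were not called, as in Smyd2 KO and Srebf1 KO. A value that stayed uncalled counts as kept, so the 574 do not give the stability of the calls. Scaling moved the higher share of all called genes in Bcl6 KO to 66.52% (median) and 59.3% (quantile) from 48.1% as deposited, and median scaling moved it to 72.22% from 52.05% in Srebf1 KO and to 69.96% from 45.92% in Tbx3 KO. Implied depth of 2110000 reads at the least limits the chains near 1 FPKM.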
